A study of Homo sapiens with 9 samples.

Results

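The 1175 single-nucleotide positions described here are MSI1 iCLIP sites that lie inside internal exons, mapped in U251 cells, a human glioblastoma line. A position was taken when the same nucleotide and strand appeared in at least 2 of the 3 deposited iCLIP site lists, and when it fell on the same strand in an exon that is neither the first nor the last exon of its gene and in no last or only exon of another gene. These 1175 positions make up 2.73% of the 42985 positions present in at least 2 lists, and they lie in 871 exons of 647 genes. They were chosen by the iCLIP readout itself, their presence in the lists, so their numbers and places are given as descriptions and only the RNA-seq is tested. The study held 3 groups of 3 samples, all U251: RNA-seq of cells labelled WT (control), RNA-seq of cells labelled Msi1 KD, in which MSI1 was knocked down, and CLIP-seq (iCLIP) of WT cells. The method of knockdown and any treatment of the control cells: not given in the sources used here. All 3 iCLIP samples were of WT cells. Titles number 3 replicates per group, while the protocol text says that biological replicates were combined before sequencing, and nothing says that replicates came from separate cultures, so p-values measure only the spread between these samples.

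Musashi proteins are RNA-binding proteins with tandem RNA recognition motifs that prefer short uridine-rich words holding UAG. They are best known for acting on the translation and stability of mRNAs through 3′ untranslated regions in neural stem and progenitor cells, and MSI1 is often abundant in glioblastoma. An internal exon is spliced on both sides and is mostly protein-coding, so a site there sits in a different part of the transcript from the one usually studied. In iCLIP, ultraviolet light links protein to RNA, and reverse transcription tends to stop beside the linked base, which gives each site its single-nucleotide position.

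The windows below show, for 7 of the genes with most internal-exon sites, the site found in most lists and, among those, with the lowest deposited p-value (a value per site that the lists do not name, read as a p-value because it runs from 0 to 1), leaving out sites 41 nucleotides before the exon end. Each window runs 5′ to 3′ in the sense of the transcript within the exon, with the site's base in capitals and T for U, from GENCODE 29 transcripts (GRCh38) matched by exon and intron lengths. Only sites in exons with such a match could be used. Positions are hg18, as the files give them.
LAMP2 exon 9, minus strand, chromosome X position 119454466: atgtttaaaccactAgttgatgtatggtat
ADAM19 exon 21, minus strand, chromosome 5 position 156847928: ggcccgggtctcaaAtagagaggacggagt
FADS2 exon 8, plus strand, chromosome 11 position 61387101: tgggagccctccttTtcctcaacttcatca
SCD exon 5, plus strand, chromosome 10 position 102106494: ggagaatatcctggTttcacttggagctgt
TTYH3 exon 11, plus strand, chromosome 7 position 2662656: ctcatgttcagctcCatcgtctgcagcgtc
MXRA7 exon 5, minus strand, chromosome 17 position 72187763: gtttgatagattagTtagaacttcagatca
C17orf44 exon 2, minus strand, chromosome 17 position 8066345: aggtccctcctcgtTagtatagtg
The LAMP2, ADAM19, MXRA7 and C17orf44 windows hold the word TAG beside the site. Windows made in the same way for STMN1, DCBLD2, FLNA, WEE2 and ACTG1, not printed, hold no TAG, so TAG is more frequent among the printed windows. The STMN1 window lies in exon 5, because exon 7, with 27 of the gene's 28 sites, could not be matched. It does not describe the sites in exon 7.

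A different set of windows belongs to sites that lie exactly 41 nucleotides before the end of their exon, shown because these sites account for a large share of all members.
ADAM19 exon 9, minus strand, chromosome 5 position 156868928: agttggaggcgcaaGctgcttgcccagaag
DCBLD2 exon 6, minus strand, chromosome 3 position 100023803: agtaaaggtatcccCtattatgaaagttct
NCRNA00182 exon 5, minus strand, chromosome X position 73410943: taattcttccactgAtatctcaaaaggtga
TM9SF3 exon 13, minus strand, chromosome 10 position 98277201: tcaactgcaatctaTgtttacatgtattcc
Each of these 4 sites was in all 3 lists, and the 4 site bases are G, C, A and T. Sites at 41 nucleotides in IFLTD1 exon 10 and STAP2 exon 3, not printed, were also in all 3 lists. Their site bases are G and T, and the IFLTD1 window holds TAG at the site. The printed windows are therefore examples and not a measure of base or word shares.

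Of the 1175 sites, 321 (27.3%) lay 41 nucleotides before the exon end, and the distances of 40 and 42 nucleotides held 4 and 6. These sites were almost all on the minus strand: 318 of 725 minus-strand sites (43.9%) and 3 of 450 plus-strand sites (0.667%) had this distance. The same held in each list taken alone, where the share at 41 nucleotides among internal-exon sites was 14.8%, 19.8% and 20.6% on the minus strand and 0.611%, 0.682% and 0.584% on the plus strand in lists 1, 2 and 3. Among the 99 members found in all 3 lists, 44 lay at this distance, and all 44 were on the minus strand. First exons showed it as well (56 of 95 minus-strand sites and 1 of 101 plus-strand sites), while last exons, which have no splice site at their end, did not (5 of 6355 and 4 of 7269).

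**Figure D1:**
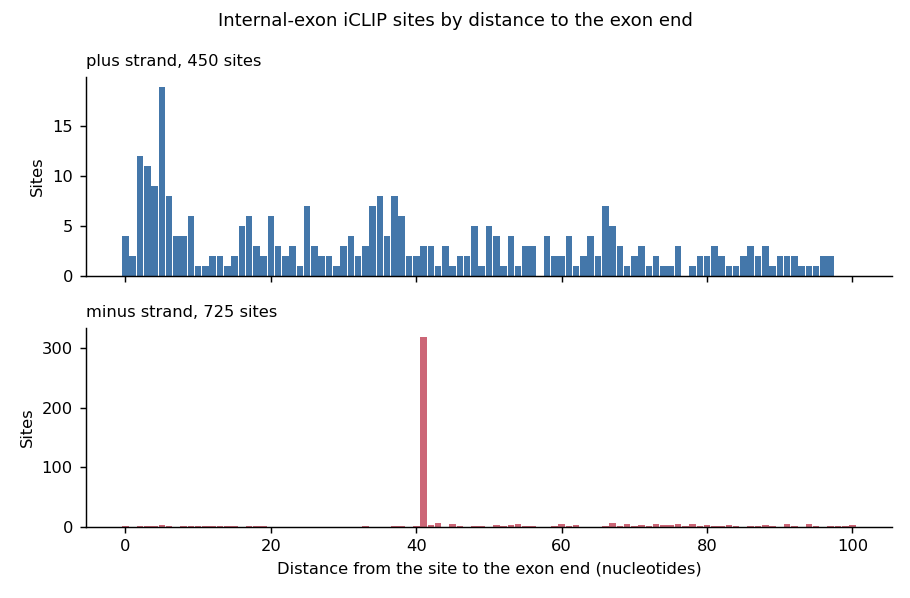
Number of internal-exon sites (vertical axis) at each distance from the exon end in nucleotides (horizontal axis, up to 100), for 450 plus-strand sites (upper panel) and 725 minus-strand sites (lower panel, own vertical scale). The minus strand has 318 sites at 41 nucleotides, and the plus strand has its densest stretch at 2 to 6 nucleotides.

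A smaller pile of sites stood at the other strand's exon ends. From 2 to 6 nucleotides before the exon end lay 59 of 450 plus-strand sites (13.1%) and 9 of 725 minus-strand sites (1.24%), and in the 30 plus-strand members found in all 3 lists the share was 53.3%. Results below include the 321 sites at 41 nucleotides unless stated, and some are also given without them. The protocol text names reads of 50 bases, and the cause of the distance was not tested.

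The sites at 41 nucleotides had other base shares than the remaining members. Exons could be matched to a GENCODE transcript for 750 of 871 (86.1%). At the 288 matched sites at 41 nucleotides, thymine made up 22.9% of site bases and 24.0% of the next base, against 24.0% over the whole exons. At the 697 matched site entries at other distances, thymine made up 42.6% of site bases, 49.4% of the next base and 36.2% of the base after it, against 24.3% over the whole exons. In exons of up to 300 nucleotides these shares were 41.5%, 45.1% and 34.2%, against 23.3%. In list 1, 34.4% of members at 41 nucleotides had a deposited p-value below 0.05, against 12.5% of the other members.

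The profile of the other sites stood in a different register on the 2 strands. On the plus strand thymine was highest at the site itself (47.2%, with 45.1% at the next base) and adenine was 32.9% at the next base. On the minus strand thymine was highest at the next base (54.6%, with 37.1% at the site) and adenine was 34.4% at the base after that, with 10.1% at the next base. The deposited positions were used as given, and a capital letter in a minus-strand window above may therefore stand 1 base from its plus-strand counterpart.

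**Figure D2:**
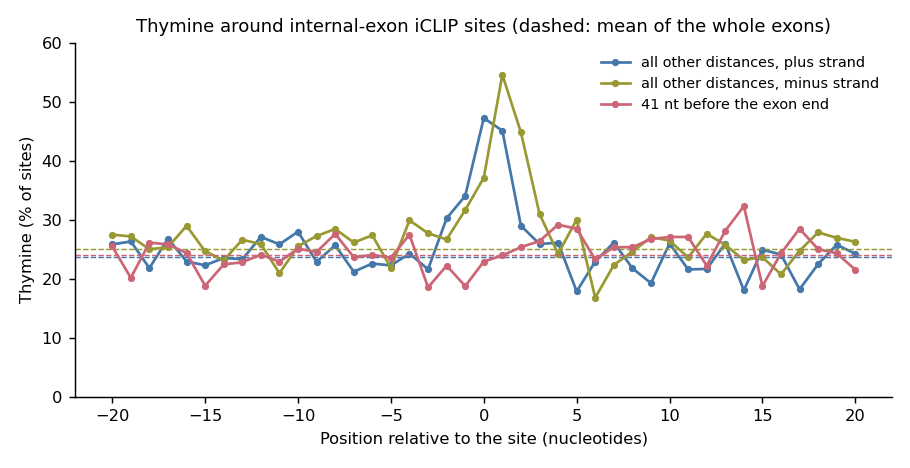
Share of sites with thymine (vertical axis, %) at each position from 20 nucleotides before to 20 after the site (horizontal axis), for internal-exon sites at other distances on each strand and for sites 41 nucleotides before the exon end, with dashed lines for the mean thymine share of the whole exons. The plus-strand line peaks at 47.2% at the site, the minus-strand line at 54.6% at the next base, and the line for the 41-nucleotide sites stays near 24.0%.

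The word TAG, the core of the Musashi motif, was searched on the transcript strand in windows of 31 nucleotides centred on the site, for members whose window lay inside the exon. Among 546 sites at other distances, 26.2% of windows held TAG, against 20.1% of all windows of the same exons, and the longer word TTAG, which contains it, stood in 13.0% against 6.53%. ATAG stood in 7.14% against 5.26% and GTAG in 6.23% against 4.90%. TTT was in 42.1% against 32.5%. Among 271 sites at 41 nucleotides, TAG was in 20.7% of windows against 20.1%, TTAG in 7.75% against 6.27%, and TTT in 31.7% against 31.1%. Last exons showed higher shares too: at 5816 sites TAG was in 40.3% against 26.6%, TTAG in 16.4% against 8.42%, and TTT in 67.7% against 47.5%. The sites at other distances pool short exons with long ones, some of them mostly noncoding. The word shares were not split by exon length, so whether some long exons carry the higher TAG and TTAG shares was not tested. These shares are descriptions of the sequence around called positions, with no test, since neighbouring sites share sequence.

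Internal exons carried few sites for their length beside last exons. They held 0.0437 sites per kilobase, against 0.468 in last exons, a ratio of 10.7. In each list alone the ratio was smaller, at 3.05, 5.65 and 6.64, with last exons ahead in 3 of 3 lists, and without the 41-nucleotide sites it was 14.7. Relative to control RNA-seq reads rather than length, last exons held 20.3 times the sites of internal exons. First exons held 0.0357 sites per kilobase, 0.816 times the internal-exon density, so a low density per base was not particular to internal exons. Relative to reads, first exons held 4.54 times the sites of internal exons. Of the internal-exon sites, 2.22%, 11.6% and 15.4% of those of lists 1, 2 and 3 were in another list, against 7.48%, 25.6% and 25.5% of last-exon sites. These ratios describe the lists that chose the sites and were not tested.

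Most members rest on list 1, the longest. Lists 1, 2 and 3 held 1746795, 145718 and 208722 sites in all and 1143, 401 and 905 of the members. Of the members, 774 were in lists 1 and 3, 270 in lists 1 and 2, 32 in lists 2 and 3, and 99 in all 3. A deposited p-value below 0.05 was held by 18.5%, 5.74% and 8.62% of the members in lists 1, 2 and 3, against 4.40%, 2.77% and 3.74% of all sites of these lists. Among last-exon sites in at least 2 lists the shares were 16.6%, 6.22% and 8.62%, so the higher shares were not particular to internal exons. In at least 2 lists, 28 members had such a value. Of the genes of those 28 sites, WEE2, a kinase known from oocytes and named after its values were seen, had 5 sites in its exon 10 and 0 reads there in each of the 6 libraries.

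Among internal exons, those with a site were more often highly expressed and more often long. When internal exons were ranked by control reads per kilobase, 2.16% of the highest decile (361 of 16735 exons) had a site and 0.0896% of the lowest (15 exons). Without the 41-nucleotide sites these shares were 1.35% and 0.0478%. The median exon with a site had 2037 control reads per kilobase, against 319 for all internal exons, yet 57 member exons with 68 sites had fewer than 1 control read on average, and 34 of those exons held sites at 41 nucleotides. Exons over 500 nucleotides were 2.60% of internal exons and 19.1% of internal-exon bases, and they made up 15.3% of member exons (133) and held 24.5% of sites (288). Exons over 1000 nucleotides had a site in 6.13% of cases, against 0.474% of exons of 101 to 200 nucleotides. Longer exons offer more positions, and per kilobase the difference was smaller, at 0.0626 against 0.0384 sites. Exons of up to 100 nucleotides held 0.0600 sites per kilobase.

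**Figure D3:**
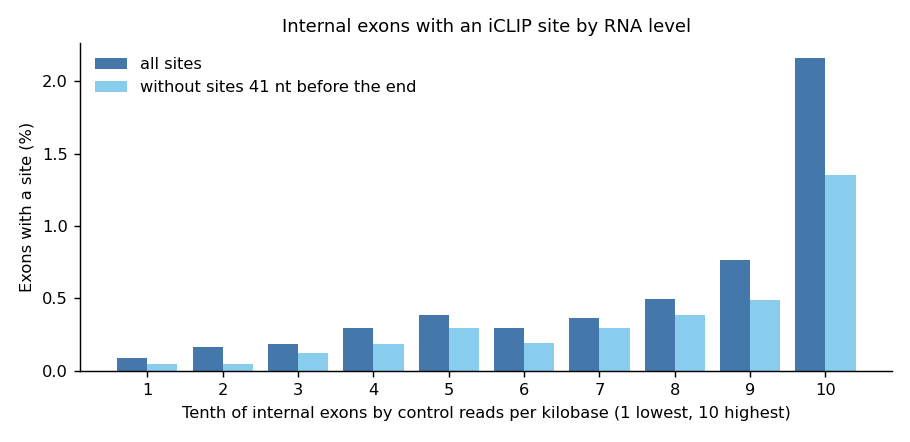
Percentage of internal exons with a site (vertical axis) in each decile of control RNA-seq reads per kilobase (horizontal axis, 1 lowest, 10 highest), for all sites and without those 41 nucleotides before the exon end. The highest decile reaches 2.16% with all sites and 1.35% without them.

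Of the 750 matched exons, 630 (84.0%) were wholly coding in the matched transcript, 67 partly and 53 not at all. In 47 of them (6.27%) an exon of the same length and upstream intron closes another GENCODE transcript, so these exons are internal in the merged exon table and last in an isoform. The next-to-last exon of a gene took 133 of the 871 member exons (15.3%) and 282 sites, against 10.2% of all internal exons. Among exons over 500 nucleotides only 71 of 133 could be matched, so the sequence and coding classes of the long exons as a set are void and single exons are named instead.

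Sites were concentrated in a few genes. Of 647 genes, 484 had 1 site and 12 had at least 10, and those 12 held 269 sites (22.9%). Neighbouring sites in an exon were a median of 12 nucleotides apart, and 67 of 306 gaps were 1 nucleotide. Of the 647 genes, 305 (47.1%) also had a shared site in their last exon.

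LAMP2, a lysosomal membrane glycoprotein whose transcripts end in alternative last exons, had the most, with 51 sites, all in exon 9 of 10 (chromosome X, 119454377 to 119457176). That exon is 2800 nucleotides long, 137 of them coding in the matched transcript, and it closes a GENCODE transcript. Of the 51 sites, 49 were in list 1, 24 in list 2, 34 in list 3 and 5 in all 3. LAMP2 had 1 shared site in its last exon.

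STMN1, the microtubule-destabilising protein stathmin, had 28 sites, 27 of them in exon 7 of 8, which is 972 nucleotides long. Similar single long exons carried sites in ASPH, an aspartate beta-hydroxylase (10 of 14 sites in exon 19, 2571 nucleotides), CPT1A, which imports fatty acids into mitochondria (9 in exon 19, 2848 nucleotides), SLC39A14, a zinc transporter (8 of 11 in exon 11, 3183 nucleotides), and MXRA7 (7 in exon 5, 1311 nucleotides). The matched ASPH and MXRA7 exons, like that of LAMP2, close a GENCODE transcript, with 5 and 0 coding bases, and the STMN1, CPT1A and SLC39A14 exons could not be matched.

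In a second kind of gene the sites were spread over many short coding exons, and the last exon held more. ADAM19, a cell-surface metalloproteinase, had 43 sites in 15 of its 21 internal exons, 12 of them at 41 nucleotides, and 338 in its last exon. The fatty acid desaturases FADS2 and SCD had 23 sites in 8 internal exons and 20 in 4, with 131 and 950 in the last exons, and TTYH3 had 17 in 7 and 158. DCBLD2, a neuropilin-like membrane protein, had 10 sites, of which 8 lay at 41 nucleotides, and 162 in its last exon. FLNA, an actin crosslinker, differed from these in its last exon, with 10 internal-exon sites, 5 of them at 41 nucleotides, and 3 last-exon sites.

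C17orf44, a long noncoding RNA now named LINC00324 in RefSeq, stood apart. Its exon 2 (982 nucleotides) held 19 sites, 10 of them in all 3 lists, although it had only 2, 5 and 4 reads in the control libraries. In RefSeq (GRCh38) the last 17 bases of that exon are part of a gene for an aspartate tRNA, which covers 13 of the 19 sites, and a proline tRNA gene inside the exon covers 5 more. The window printed for this gene above ends within the aspartate tRNA gene. No other matched member exon had a site inside a small RNA gene of the RefSeq table, which gives no strand.

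MSI1 itself was measured at 15.5, 17.2 and 7.68 CPM (counts scaled to library size with TMM factors) in the control libraries and 3.20, 5.19 and 2.30 CPM in the knockdown libraries. The groups did not overlap, and the log2 fold change was -1.97 ± 0.42 (SE) with an adjusted p of 0.0699 in edgeR's quasi-likelihood test and 0.00279 with the replicate number as a block. Its paralog MSI2 was at 51.2, 49.8 and 40.7 CPM in control and 49.4, 48.9 and 47.3 CPM in knockdown libraries, with a log2 fold change of -0.01, or 0.04 with DESeq2's size factors. Markers of glial and mesenchymal glioblastoma cells were all 8 at 1 CPM or more, while 1 of 5 leukocyte markers was (CD68, 3.76 to 6.33 CPM), the list summing to 3.79 to 6.33 CPM with CD3E and ITGAM at 0. Of 5 neuronal markers 3 were (SYT1, SNAP25 and GAD1), the list summing to 59.8 to 70.8 CPM, with STMN2 at 0. Of 3 oligodendrocyte markers MBP alone was, the list summing to 1.11 to 2.31 CPM. Of 4 epithelial markers KRT8 and KRT18 were, the list summing to 301.5 to 510 CPM, and EPCAM was at 0 to 0.133 CPM. Of 4 endothelial markers KDR alone was, and their sum did not overlap between groups, at 13.1 to 13.997 CPM in control and 22.3 to 25.8 CPM in knockdown libraries, with PECAM1 at 0 to 0.0532 CPM. The part of these markers in the results below was not tested. Control replicate 3 stood apart from the other controls over the genes as a whole. The mean chi-square per gene, which grows as 2 libraries differ, was 210.9 and 214.4 between it and controls 1 and 2. Between controls 1 and 2 it was 22.7, and from them to the knockdown libraries 76.8 to 142.2. Control 3 and knockdown 3 were at 132.9. Among member genes, TTYH3 was at 194 CPM in control replicate 3 against 878 and 955 in the other controls, and FLNA at 1110 against 3508 and 3407. Knockdown replicate 3 was the lowest of its group in both genes, at 770 and 2082 CPM.

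Of the 647 genes with an internal-exon site, 621 were tested for a change after knockdown, and 11 passed an adjusted p of 0.05 (1.77%), beside 1.67% of all 13856 tested genes. Of the 11, 3 rose and 8 fell, where 0.772% of all tested genes rose and 0.902% fell. The median log2 fold change was -0.03 against -0.04 for all tested genes, and the groups did not overlap in 23.2% against 21.4%. With the replicate block, 68 rose and 91 fell, 25.6% of the 621 beside 17.3% of all genes, of which 7.04% rose and 10.3% fell. The 2 sets were not matched for RNA level, and exons with more reads held sites more often. The higher share with the block therefore does not show that genes with a site changed more. DESeq2 called 19 higher and 17 lower, 5.79% of 622 beside 5.06% of all genes (2.83% higher and 2.24% lower). Without the 41-nucleotide sites, 9 of 449 genes passed.

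Among the genes that fell, B4GALT5, a galactosyltransferase of glycolipid synthesis, went from 176, 192 and 197 CPM in control to 74.2, 76.1 and 80.9 CPM in knockdown libraries (log2 fold change -1.33 ± 0.12 SE, adjusted p = 0.00850). It has 2 sites, 1 in exon 6 and 1 in exon 7 at 41 nucleotides. HSP90AB1, a constitutive chaperone with several pseudogene copies that may share its reads, went from 2672, 2446 and 2817 to 1335, 1098 and 1351 CPM (log2 fold change -1.11 ± 0.13 SE, adjusted p = 0.0149). Every knockdown library was below every control library in both genes. SLC39A14 fell from 125, 130 and 137 to 63.4, 59.9 and 75.5 CPM (log2 fold change -1.03, adjusted p = 0.0196), and it is the single gene with 10 or more internal-exon sites that passed.

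PLXNA2, a semaphorin receptor, fell from 46.1, 81.5 and 49.7 to 22.8, 25.8 and 22.7 CPM (log2 fold change -1.36, adjusted p = 0.0462). MAP1B, a microtubule-associated protein with its site in the 6502-nucleotide exon 5, fell from 2793, 2606 and 2741 to 1857, 1611 and 1693 CPM (log2 fold change -0.70, adjusted p = 0.0391). NT5DC3, ARID5B, a DNA-binding protein, and DLST, a subunit of the 2-oxoglutarate dehydrogenase complex, fell with log2 fold changes of -1.07, -0.94 and -0.91. NT5DC3's site lies at 41 nucleotides, and those of ARID5B and DLST do not.

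The 3 genes that rose each have 1 site. EPDR1, an ependymin-related protein, went from 113, 89.8 and 135 to 243, 220.5 and 260 CPM (log2 fold change 1.05, adjusted p = 0.0337), and SEL1L3 from 100.5, 122 and 119 to 196, 216 and 199 CPM (log2 fold change 0.80, adjusted p = 0.0347). SYTL4, a regulator of granule exocytosis whose site is at 41 nucleotides, went from 5.36, 4.56 and 6.10 to 12.02, 11.1 and 11.2 CPM (log2 fold change 1.05, adjusted p = 0.0432). In all 11 genes the groups did not overlap. Leaving out any single library other than control replicate 3 left 0 genes with a site past the threshold, beside 0.0714% and 0.0643% of all genes without control replicates 1 and 2 and 0%, 0.0285% and 0.0286% without knockdown replicates 1, 2 and 3. Without control replicate 3 the count was 62 genes with a site, beside 7.31% of all genes.

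**Figure D4:**
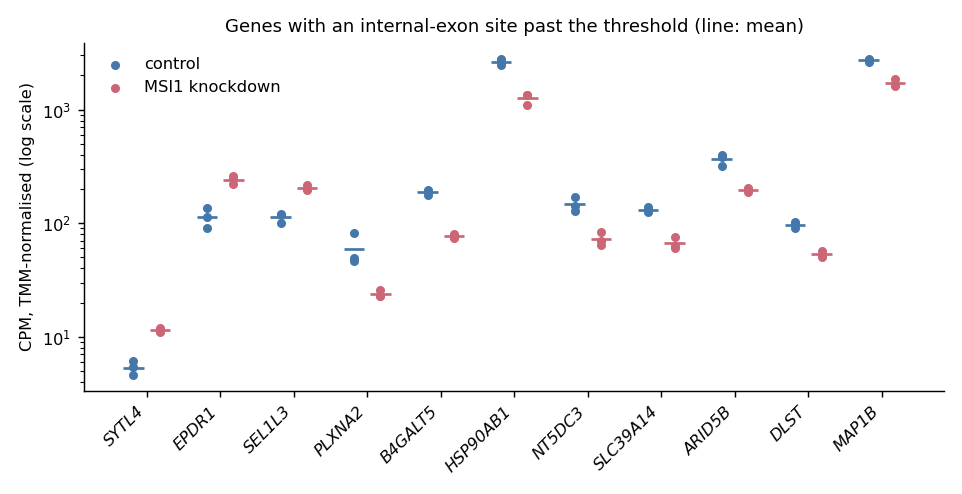
TMM-normalised CPM on a log scale (vertical axis) in each of the 3 control and 3 knockdown libraries for the 11 genes with an internal-exon site that passed the threshold (horizontal axis), with a line at each group's mean. In every gene the points of the groups are separate, from SYTL4 near 5.34 CPM in control to MAP1B near 2713 CPM.

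Among the genes with most sites described here other than SLC39A14, none passed the threshold without the block. DCBLD2 was at 1642, 1521 and 1998 CPM in control and 2668, 2439 and 2782 CPM in knockdown libraries, without overlap, with a log2 fold change of 0.57 and an adjusted p of 0.0908, or 0.00525 with the block. LAMP2 had 536, 494 and 693 CPM in control and 644, 583 and 683 CPM in knockdown libraries, and these overlapped. FADS2 had a log2 fold change of 0.69 and an adjusted p of 0.461, or 0.0435 with the block.

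Exon use was compared as the change of each exon relative to the other exons of its gene. Of the 871 exons with a site, 776 were tested and 0 passed an adjusted p of 0.05 in edgeR's diffSpliceDGE, beside 0% of 104491 internal exons. At an unadjusted p below 0.05 there were 2 of the 776 (0.258%), beside 0.1% of internal exons, and both lie outside the 41-nucleotide set. Evenly spread p-values would put a share of 0.05 of exons there, so this test was strict in these libraries. The absence of calls therefore does not show that exon use stayed the same. With the replicate block 0 passed as well and 9 had an unadjusted p below 0.05 (1.16%, beside 1.19%), beside 0.00861% of internal exons past the adjusted threshold, and limma's diffSplice gave 0 and 4, beside 0.00191% and 0.433%. The shares of the gene's reads did not overlap between groups in 7.86% of the exons with a site, beside 7.91% of internal exons.

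CAPRIN1, an mRNA-binding protein of cytoplasmic granules, had the lowest unadjusted p among exons with a site. Its exon 18 of 19 (chromosome 11, 34075821 to 34077183, 1363 nucleotides) took 3.14%, 3.05% and 2.75% of the gene's exon reads in control and 5.20%, 5.18% and 4.43% in knockdown libraries. The log2 change relative to the gene was 0.73, with an adjusted p of 1.00, or 0.102 with the block. The exon's own counts were 2052, 1592 and 1607 in control and 1886, 1429 and 1568 in knockdown libraries, while the gene went from 1072, 993 and 1453 to 668, 555 and 699 CPM (log2 fold change -0.91, adjusted p = 0.052). Sites in exons 10 and 14 of the same gene lay in exons whose share did not separate the groups.

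The remaining exons of the 5 lowest unadjusted p in each direction, all of which separate the groups because they were chosen so, had unadjusted p-values of 0.0499 or more. In IP6K2, an inositol phosphate kinase, exon 5 (791 nucleotides) took 14.7%, 16.8% and 15.03% in control and 9.23%, 12.02% and 8.82% in knockdown libraries, with a log2 change of -0.63. In PPM1B, a protein phosphatase, exon 6 (1480 nucleotides, 3 sites) took 20.01%, 21.3% and 22.5% and then 17.1%, 16.3% and 12.7%. The higher shares were in FLJ42709 exon 7, H2AFV exon 5, RTN4 exon 4 and TNIK exon 3, and the lower ones in C9orf5 exon 11, NCRNA00182 exon 2 and ZNF283 exon 2.

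Of the exons with most sites, LAMP2 exon 9 took 39.5%, 38.8% and 43.7% of the gene's exon reads in control and 41.4%, 41.5% and 43.8% in knockdown libraries, and STMN1 exon 7 took 49.2%, 46.6% and 54.7% and then 50.05%, 49.2% and 51.2%. MXRA7 exon 5 took 72.8%, 73.8% and 75.6% and then 80.2%, 78.5% and 79.0%, without overlap, with a log2 change of 0.10 and an adjusted p of 1.00.

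**Figure D5:**
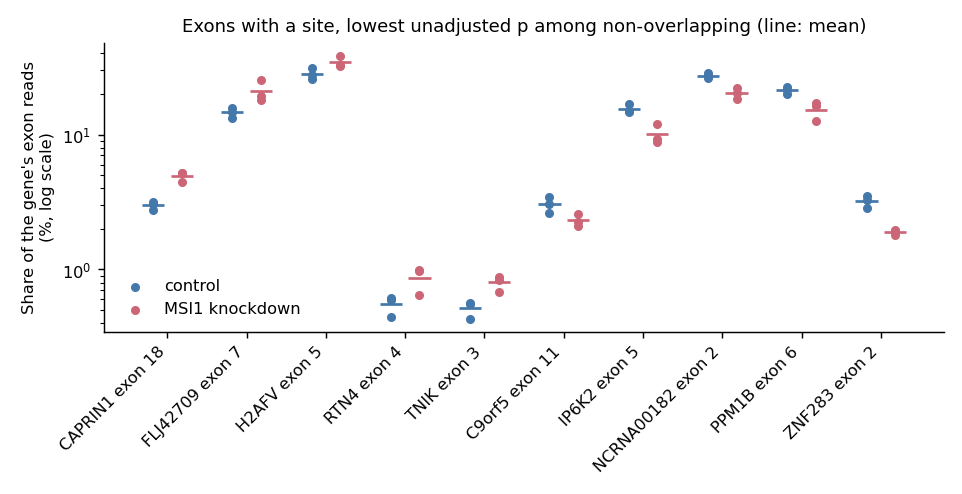
Share of the gene's exon reads (vertical axis, %, log scale) in each of the 3 control and 3 knockdown libraries for the 10 exons with a site and the lowest unadjusted p in each direction among those whose groups do not overlap (horizontal axis), with a line at each group's mean. CAPRIN1 exon 18 goes from a mean of 2.98% to 4.93%, and none of the 10 passed an adjusted p of 0.05.

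Genes of pathways tied to glioma biology carried internal-exon sites to differing degrees, with 3.10% of all 20848 genes and 4.48% of the 13856 tested genes holding one. Sites were found in 10 of 36 integrin and focal adhesion genes, 8 of 25 extracellular matrix genes, 4 of 17 cadherin and junction genes, 7 of 20 actin, myosin and spectrin genes, 5 of 18 microtubule and intermediate filament genes and 11 of 31 splicing factor genes. The counts were 5 of 22 for translation factors, 4 of 42 for ribosomal proteins, 6 of 24 for chaperones, 4 of 18 for glycolysis and hypoxia genes, 4 of 24 for cell cycle genes, 1 of 15 for Musashi targets named in earlier literature and 2 of 18 for neural and glioma stem markers. The RNA levels of these lists were not compared, and exons with more reads held sites more often. These counts therefore do not show a preference for any of these pathways. CD44, the hyaluronan receptor, was the single Musashi target with a site (5 in 3 exons, none at 41 nucleotides, and 776 in its last exon). ACTG1, a cytoskeletal actin with near-identical copies, held 6 in its exon 4.

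Of the listed genes with a site, MAP1B and HSP90AB1 passed the threshold, and none of the others did. Without regard to sites, 2 integrin and focal adhesion genes rose and 2 fell of 36 tested, and with the block 12 rose and 3 fell, beside 0.772% higher and 0.902% lower over all tested genes, or 7.04% and 10.3% with the block. For the extracellular matrix list 2 rose and 0 fell of 25, and 8 and 2 with the block, while the 31 splicing factors gave 0 and 0 in both fits. In the other lists at most 1 gene rose and 2 fell without the block, and at most 5 rose and 7 fell with it.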

How the data were processed

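The authors deposited raw read counts per gene and per exon for 6 RNA-seq libraries, and for 3 iCLIP libraries single-nucleotide site lists with an unnamed value per site, deposited without a header and taken as a p-value from its range of 0 to 1. Coordinates are on hg18, the build in the submitters' processing notes. For the aligner, counter, strand setting and site caller, nothing was given in the sources used here. Gene counts summed to 32919299 to 47277016 per library and exon counts to 41850423 to 60776151. Genes were tested with edgeR 4.0.16 (quasi-likelihood test, TMM, filterByExpr, Benjamini-Hochberg 0.05) in R 4.3.3, and exons with diffSpliceDGE, its coefficients turned into log2. DESeq2 1.42.0 and limma 3.58.1 were alternatives. Same-numbered libraries deviated from their group means together (correlations 0.318, 0.732 and 0.751, all over 0.1, numbers from the titles, though control 1 and knockdown 2 reached 0.494), so the replicate number was tried as a block, with 2 residual degrees of freedom. Scripts were tested on simulated data. Exon sequences came from GENCODE 29 by gene symbol or RefSeq synonym, exact exon length and at least 1 exact intron length, with no coordinates carried between builds. Named genes are MSI1 and MSI2, the 12 genes and 10 exons with most sites, called genes whose groups do not overlap with mean log2 CPM of at least 2 (up to 8 per direction), the 5 exons of lowest p per direction and up to 3 genes per list. Others were chosen after their values were seen. Of the 12 genes with most sites, 1 is not reported here. The members and lists were chosen with earlier results of these data known. Library pairs differed beyond sampling noise.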

Additional observations from a re-analysis of the deposited data

How the results depend on the processing

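The number of internal-exon sites was 99 when a site had to be in all 3 lists and 28 with a deposited p-value below 0.05 in at least 2 lists, 1667 when positions within 2 nucleotides counted as shared, and leaving out 1 list gave 131 to 873. The share of sites past the midpoint of the exon was 58.3%, and it was 72.7% for sites in all 3 lists, 60.5% with each exon counted once, 64.2% in exons of 100 to 300 nucleotides and 50.6% without the 41-nucleotide sites, an alternative chosen after seeing the data. The last-to-internal density ratio of 10.7 was 3.05, 5.65 and 6.64 in lists 1, 2 and 3 alone and 14.7 without the 41-nucleotide sites, and the share of the highest RNA decile with a site went from 2.16% to 1.35% without them. The 11 changed genes became 36 with DESeq2, 159 with the replicate block (of 2398 over all genes, against 232) and 2 for genes with a site in all 3 lists, and leaving out 1 RNA-seq library gave 0 to 62. Leaving out control 3 gave 62, and each of the other 5 libraries 0. No exon with a site passed in any of the alternatives run, and the exon tests were too strict here to show unchanged exon use. Among the genes and exons whose change is given above, MSI2, FLNA and STMN1 exon 7, none of them called, changed sign. The log2 fold change of MSI2 was 0.040 with DESeq2's size factors, 0.036 in DESeq2's own test and -0.061 to 0.063 when 1 library was left out. That of FLNA was 0.09, and -0.24 to 0.34 when 1 library was left out. The log2 change of STMN1 exon 7 relative to its gene was -0.01, with the replicate block 0.0019, with limma 0.0026, and -0.057 to 0.066 when 1 library was left out. Counting error alone limits sites with few reads, and the depth of the iCLIP libraries is not known from the lists.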
